A study of Mus musculus with 12 samples.

Results

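Interferon gamma is the signature cytokine of type 1 helper T (Th1) cells, and 10 genes around it were followed here in mouse mandibular lymph nodes: Ifng itself, the Th1 regulators Tbx21 and Stat4, the receptor chains Il12rb1, Il12rb2 and Il18r1, the chemokine receptor Cxcr3 and its ligands Cxcl9, Cxcl10 and Cxcl11. They were taken by symbol from a table of 56941 mouse gene IDs, using the ID with the most counts for each symbol. All 10 were among the 20034 genes with enough counts to be tested. The nodes came from wild-type mice and from mice lacking the microRNA miR-451a, and all had been sensitized to the contact allergen 1-fluoro-2,4-dinitrobenzene (DNFB) with 100 µl at 0.5% on the shaved abdomen on days 0, 1 and 2. Per the labels and design text, the groups WT_se (wild type) and KO_se (miR-451a knockout) were sensitized and harvested on day 9. WT_DTH and KO_DTH also received 20 µl of 1% DNFB on the left ear on day 9 and were harvested 24 hours later, on day 10. Challenge and harvest day differ together between these groups and cannot be told apart. Each group held 3 libraries of total RNA, 12 in all. The labels do not say whether these came from separate animals, so the p-values measure the spread between the libraries of a group, which may be technical. Strain, sex, age and the way the knockout was made are not given in the sources used here, and Mir451a itself was not analysed here.

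Interleukin 12 and interleukin 18, made by dendritic cells and macrophages, act on T cells and natural killer (NK) cells through receptors that include Il12rb1, Il12rb2 and Il18r1. Interleukin 12 signals through Stat4, and together with the transcription factor T-bet, the product of Tbx21, this drives Ifng. Interferon gamma in turn acts on many cell types, which then make Cxcl9, Cxcl10 and Cxcl11, the chemokines that attract Cxcr3-bearing Th1 and CD8 T cells into inflamed tissue. Contact hypersensitivity to DNFB is a T cell response in which both interferon gamma and interleukin 17A have been described. The study asked how loss of miR-451a changes that response in secondary lymphoid tissue, in particular its interleukin 17A arm, and the genes here are those of the other arm.

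The stretch just upstream of the start of each gene is where interferon and inflammatory factors are known to act, so 3 of them are shown for the genes on which the results turn. The sequences are the 250 bases before the start site in RefSeq on GRCm38.p6, an older build than the one the counts were made on, and 8 of the 10 genes had an entry. Both strands were searched for the interferon-stimulated response element (ISRE, GAAANNGAAA), the gamma-activated site (GAS, TTCNNNGAA) and the kappa-B consensus. Capitals mark the matches, and each sequence is read toward the gene.
Cxcl10 (chr5:92348890-92349139, minus strand): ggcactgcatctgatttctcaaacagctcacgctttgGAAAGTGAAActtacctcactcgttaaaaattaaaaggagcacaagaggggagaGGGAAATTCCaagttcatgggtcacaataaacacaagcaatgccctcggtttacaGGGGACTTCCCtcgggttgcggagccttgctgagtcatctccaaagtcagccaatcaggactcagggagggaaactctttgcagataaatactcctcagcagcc
Cxcl9 (chr5:92328080-92328329, minus strand): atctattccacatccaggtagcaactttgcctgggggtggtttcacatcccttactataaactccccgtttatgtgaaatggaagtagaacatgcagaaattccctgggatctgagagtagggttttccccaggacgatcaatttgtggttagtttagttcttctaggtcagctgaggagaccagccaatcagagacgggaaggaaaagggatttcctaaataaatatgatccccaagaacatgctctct
Ifng (chr10:118440796-118441045, plus strand): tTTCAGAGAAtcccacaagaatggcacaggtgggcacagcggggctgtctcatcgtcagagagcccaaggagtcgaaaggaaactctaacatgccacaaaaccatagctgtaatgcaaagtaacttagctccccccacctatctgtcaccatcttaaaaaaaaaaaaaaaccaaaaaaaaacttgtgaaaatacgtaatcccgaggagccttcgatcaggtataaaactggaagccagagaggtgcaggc

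The Cxcl10 stretch held 1 ISRE, 213 to 204 bases before the start, and 3 matches to the kappa-B consensus, at 159 to 150, 104 to 95 and 103 to 94 bases, the last 2 overlapping. The Ifng stretch held 1 GAS, 249 to 241 bases before the start, and the Cxcl9 stretch held none of the 3 motifs in exactly these letters. Elsewhere among the 10 genes, Stat4 had an ISRE 97 to 88 bases before the second of its 2 start sites, Il12rb2 had a GAS at 123 to 115 bases, and Il18r1 had 2 GAS at the last of its 3 start sites. Of 32851 stretches of the same length over all genes, 2.98% held an ISRE, 7.02% a GAS and 7.25% a kappa-B match. A match is a run of letters and not a shown binding site.

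Depth ran from 36946696 to 58405576 estimated counts per library. Salivary gland, which lies against these nodes, left transcripts in each library. In wild type its 20 markers made up 10.3 ± 3.71% of all counts before challenge and 2.50 ± 0.659% after it, and in the knockout 4.46 ± 1.96% before and 7.39 ± 2.86% after (SD, n = 3 per group). By a two-sided exact permutation test the share gave p = 0.1 in wild type and p = 0.2 in the knockout between the states, where 0.1 is the smallest possible with 3 libraries against 3. The wild-type groups did not overlap and the knockout groups did, and the challenge results are also given with the salivary signal in the model. Mitochondrially encoded genes made up 17.3 ± 2.88% of counts in WT_se and 5.29 ± 0.746% in WT_DTH, without overlap. In KO_se they made up 13.9 ± 2.12% and in KO_DTH 10.7 ± 5.16%, with overlap. The 8 erythroid markers made up 1.09 ± 0.384%, 0.243 ± 0.0172%, 0.863 ± 0.625% and 0.288 ± 0.174% in the same order. The part of these shares in the challenge results was not tested. Xist had more counts than Ddx3y, a gene of the Y chromosome, in 1 of 3 libraries of either sensitized group and in 2 of 3 of either challenged group, and the part of sex in the challenge results was not tested. All 13 T cell markers and all 8 B cell markers had counts, so the defining cells of a node were present. In bulk RNA, fewer cells of a type and less RNA per cell cannot be told apart.

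The genes of the axis differed widely in level. Per kilobase of annotated exon, Stat4 was the highest of the 10 in each of the 4 groups, from 20.3 ± 1.46 CPM (a gene's counts relative to its library's total, scaled by the trimmed mean of M values, TMM) per kilobase in KO_se to 26.1 ± 1.93 in WT_DTH. In WT_se, Cxcr3 (7.81 ± 0.879 CPM per kilobase) and Il18r1 (7.24 ± 1.49) came next and overlapped. Cxcl10 came after them at 2.67 ± 0.677 and overlapped Tbx21 at 2.17 ± 0.420, while Cxcl9, Il12rb1 and Ifng lay together between 1.42 and 1.51. In WT_DTH the order was another: Cxcl10 (17.8 ± 2.00) and Cxcl9 (14.5 ± 4.37) stood at ranks 2 and 3, overlapping each other and above Cxcr3 (6.37 ± 1.76). In KO_DTH the same pair held ranks 2 and 3, with 18.6 ± 4.4 for Cxcl10 and 14.3 ± 5.67 for Cxcl9. Il12rb2 and Cxcl11 were the lowest of the 10 in each group.

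**Figure D1:**
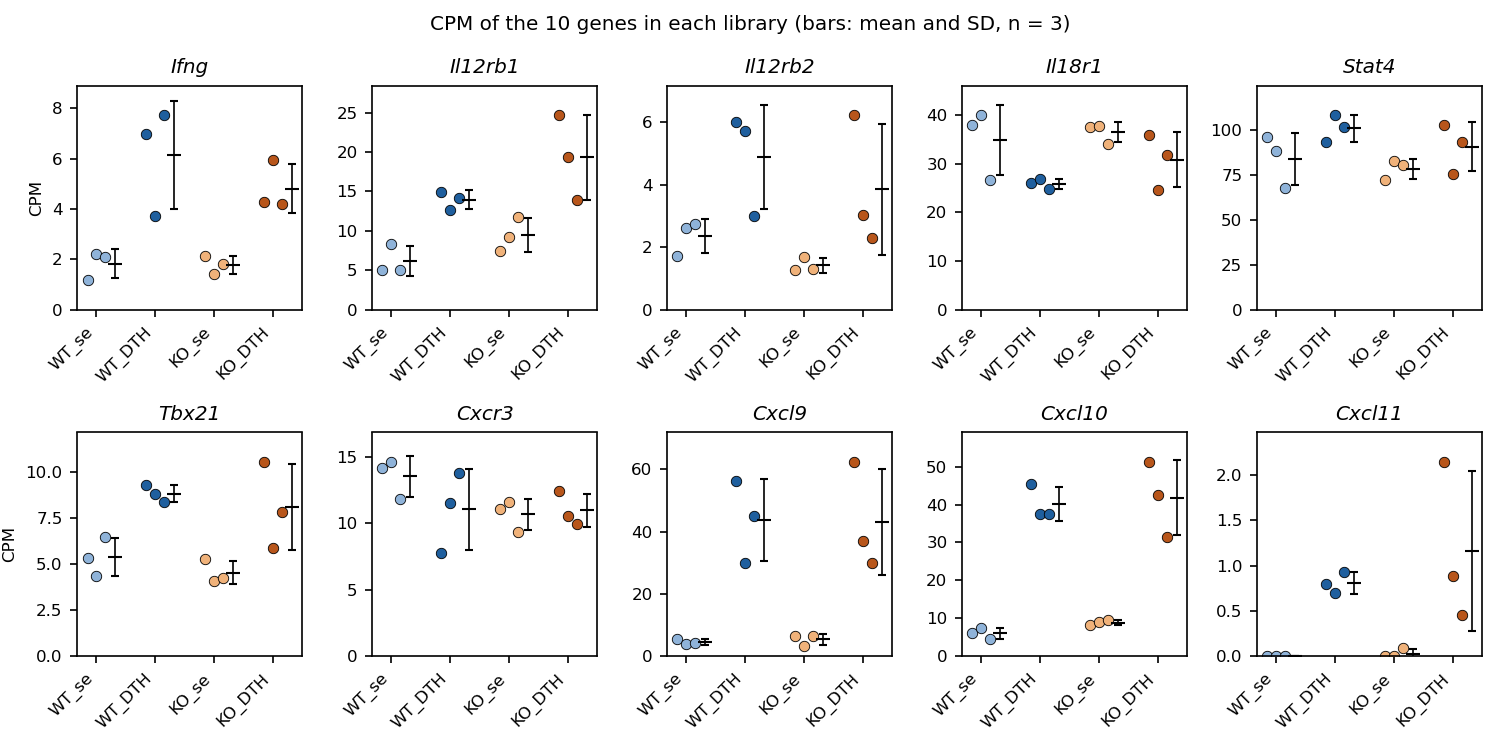
Each panel plots 1 gene, with CPM (TMM-scaled) on the vertical axis from 0 and the 4 groups on the horizontal axis. Each point is 1 library and the bars give the mean and SD of 3. The challenged groups (WT_DTH, KO_DTH) lie above the sensitized groups of their genotype without overlap for Ifng, Il12rb1, Il12rb2, Tbx21, Cxcl9, Cxcl10 and Cxcl11. They overlap them for Il18r1, Stat4 and Cxcr3. The share of all genes whose groups lie apart is not given here, for these or later comparisons.

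In wild-type nodes, the ligands of Cxcr3 and Ifng rose with challenge while Cxcr3 itself did not pass the test. Of the 10 genes 6 passed, and all 6 were higher: Cxcl9, Cxcl10, Cxcl11, Ifng, Il12rb1 and Tbx21 (edgeR quasi-likelihood test, Benjamini-Hochberg adjusted p under 0.05 over all genes tested). Over all genes, 9.77% were called higher in this comparison. The median log2 fold change of the 10 genes was 1.12, beside -0.01 over all genes tested.

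The ligands moved most. Cxcl9 (ENSMUSG00000029417), a chemokine known as an interferon gamma target, measured 5.56, 3.91 and 4.19 CPM in the WT_se libraries and 56.1, 29.9 and 45.1 in WT_DTH. The groups lay far apart, and the lowest challenged library was above every sensitized one by a wide margin. The fitted fold change was 9.61 (95% interval 5.79 to 15.9, log2 3.26 ± 0.34 SE, edgeR adjusted p = 7.32e-05). Cxcl10 (ENSMUSG00000034855), which also answers to type I interferon, measured 6.02, 7.53 and 4.48 CPM in WT_se and 45.3, 37.6 and 37.4 in WT_DTH, again without overlap. Its fold change was 6.68 (95% interval 4.93 to 9.07, log2 2.74 ± 0.20, edgeR adjusted p = 1.61e-05).

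Cxcl11 (ENSMUSG00000060183), the remaining ligand, is annotated as a polymorphic pseudogene in GENCODE M21, and its transcripts were scarce. No count was found in any WT_se library, and WT_DTH held 35, 38 and 53 counts (0.796, 0.698 and 0.931 CPM). With the 0 of WT_se set at the limit of 3 counts that it allows over the group, the ratio of summed counts, scaled for depth, was 30.8. With those 3 treated as if counted, its counting interval ran from 10.3 to 152, but a count of 0 sets no upper limit to the ratio. The fitted log2 fold change was 8.22 ± 1.56, and Cxcl11 was called higher after challenge (edgeR adjusted p = 0.0049). The summed CPM of the 3 ligands went from 10.6 ± 1.64 in WT_se to 84.6 ± 17.1 in WT_DTH (n = 3 each, two-sided exact permutation p = 0.1, the smallest possible).

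Ifng (ENSMUSG00000055170) was low in sensitized wild-type nodes, at 1.18, 2.22 and 2.10 CPM, and stood at 6.98, 3.73 and 7.73 CPM in WT_DTH. Replicate 2 was the lowest of the challenged libraries and still above all 3 sensitized ones. The fold change was 3.34 (95% interval 2.05 to 5.46, log2 1.74 ± 0.33, edgeR adjusted p = 0.00312). Il12rb1, the receptor chain shared by interleukins 12 and 23, rose from 6.12 ± 1.91 to 13.9 ± 1.19 CPM (n = 3 each, log2 1.19 ± 0.25, edgeR adjusted p = 0.00585), with libraries of 5.04, 8.33 and 5.0 against 15, 12.6 and 14.2. Tbx21 rose less, from 5.35, 4.37 and 6.45 CPM to 9.28, 8.81 and 8.36 (log2 0.71 ± 0.22, edgeR adjusted p = 0.0408). Its groups did not overlap, but Tbx21 no longer passed in 5 of 6 fits made with a library removed (edgeR adjusted p up to 0.142).

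The other receptor chains, Stat4 and Cxcr3 did not pass in wild type. Il12rb2, the signalling chain of the interleukin 12 receptor, measured 1.73, 2.62 and 2.74 CPM against 6.0, 5.71 and 2.99. These groups did not overlap either, though WT_DTH replicate 3 was close, and the log2 fold change was 1.05 ± 0.38 (95% interval 0.22 to 1.87, edgeR adjusted p = 0.0754). Stat4 measured 96.3, 88.2 and 67.7 CPM in WT_se and 93.6, 108 and 102 in WT_DTH, with overlap (0.27 ± 0.13, edgeR adjusted p = 0.194). Il18r1, the ligand-binding chain of the interleukin 18 receptor, measured 37.9, 40.0 and 26.7 CPM against 26.0, 26.9 and 24.8. Its log2 fold change was -0.43 ± 0.15 (95% interval -0.76 to -0.10, edgeR adjusted p = 0.0704), and it was called lower by the DESeq2 Wald test, with a mean of at least 50 counts required, and without WT_se replicate 3. Cxcr3 measured 14.2, 14.6 and 11.8 CPM against 7.76, 11.5 and 13.8, overlapping, and gave -0.29 ± 0.19 (95% interval -0.71 to 0.12, edgeR adjusted p = 0.341).

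In knockout nodes the same 6 genes passed and Il12rb2 with them, 7 of 10, all higher after challenge. The share of all genes called higher was 5.81% here. The median over the 10 genes was 1.24, beside a median over all genes tested of -0.00194. Cxcl9 stood at 6.36, 3.31 and 6.52 CPM in KO_se and at 62.5, 36.9 and 30.0 in KO_DTH, a fold change of 7.98 (95% interval 4.86 to 13.1, log2 3.0 ± 0.33, edgeR adjusted p = 0.000131). Cxcl10 stood at 8.12, 8.91 and 9.60 CPM in KO_se and at 51.3, 42.6 and 31.6 in KO_DTH, a fold change of 4.72 (95% interval 3.51 to 6.34, log2 2.24 ± 0.20, edgeR adjusted p = 4.34e-05). Replicate 1 was the highest KO_DTH library for both ligands, and neither pair of groups overlapped.

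Cxcl11 held 0, 0 and 4 counts in KO_se and 2.15, 0.882 and 0.458 CPM in KO_DTH. The ratio of summed counts, scaled for depth, was 45.9, with a counting interval of 17.6 to 170. This ratio uses the 4 counts found, so it cannot be ranked against the wild-type ratio, which uses a set limit. The fitted log2 fold change was 5.28 ± 1.09 (edgeR adjusted p = 0.0128). KO_DTH replicate 1 held 108 of the 163 counts of its group. Without that library Cxcl11 no longer passed (log2 4.48 ± 1.19, edgeR adjusted p = 0.0622), and without KO_se replicate 3, which held all 4 counts, it stood at 8.74 ± 1.39 (edgeR adjusted p = 0.00912). The 3 ligands summed to 14.3 ± 1.99 CPM in KO_se and 86.1 ± 27.4 in KO_DTH (n = 3 each, two-sided exact permutation p = 0.1, the smallest possible). Intervals of counts cover counting error only.

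Ifng measured 2.13, 1.40 and 1.80 CPM in KO_se and 4.30, 5.93 and 4.19 in KO_DTH, with no overlap (fold change 2.70, 95% interval 1.66 to 4.4, log2 1.43 ± 0.32, edgeR adjusted p = 0.0148). Il12rb1 measured 7.38, 9.21 and 11.7 CPM against 24.7, 19.4 and 13.9 (log2 1.04 ± 0.24, edgeR adjusted p = 0.0186). Tbx21 measured 5.26, 4.09 and 4.25 CPM against 10.6, 5.88 and 7.86 (log2 0.84 ± 0.22, edgeR adjusted p = 0.0317). For these 3 genes each challenged library lay above each sensitized one, with the smallest gap for Tbx21 at replicate 2. Il12rb2 measured 1.27, 1.70 and 1.30 CPM against 6.23, 3.04 and 2.29, a spread set largely by replicate 1 (log2 1.44 ± 0.39, edgeR adjusted p = 0.0345). With 1 library left out, Ifng passed in 4 of 6 fits, Il12rb1 in 3, and Tbx21 and Il12rb2 in 2 each (edgeR adjusted p up to 0.171).

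Stat4, Il18r1 and Cxcr3 did not pass in the knockout, and all 3 overlapped between states. Stat4 measured 72.2, 82.9 and 80.6 CPM in KO_se and 103, 75.9 and 93.7 in KO_DTH (0.21 ± 0.13, edgeR adjusted p = 0.378). Il18r1 measured 37.6, 37.9 and 34.2 CPM against 35.9, 24.7 and 31.9 (-0.25 ± 0.15, edgeR adjusted p = 0.363). Cxcr3 measured 11.0, 11.6 and 9.36 CPM against 12.4, 10.6 and 9.96, with a log2 fold change of 0.04 ± 0.19 and a 95% interval of -0.37 to 0.45 (edgeR adjusted p = 0.933).

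KO_DTH replicate 1 was the highest of its group for 9 of the 10 genes, Ifng being the exception, and also for 10 of 11 NK cell markers. WT_se replicate 2 was likewise the highest of its group for 10 of 11 NK cell markers and WT_DTH replicate 1 for 8, each with 5 of the 10 genes. Without KO_DTH replicate 1, 3 of 10 genes passed in the knockout, Cxcl9, Cxcl10 and Ifng, and over all genes 1039 in place of 1938. Without KO_se replicate 2 there were also 3, the 3 ligands, and 1056 over all genes. Leaving out any other knockout library left 5 or 6. In wild type, 5 to 7 genes passed with 1 library left out, and Cxcl9, Cxcl10, Cxcl11, Ifng and Il12rb1 passed in all 6 such fits.

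**Figure D2:**
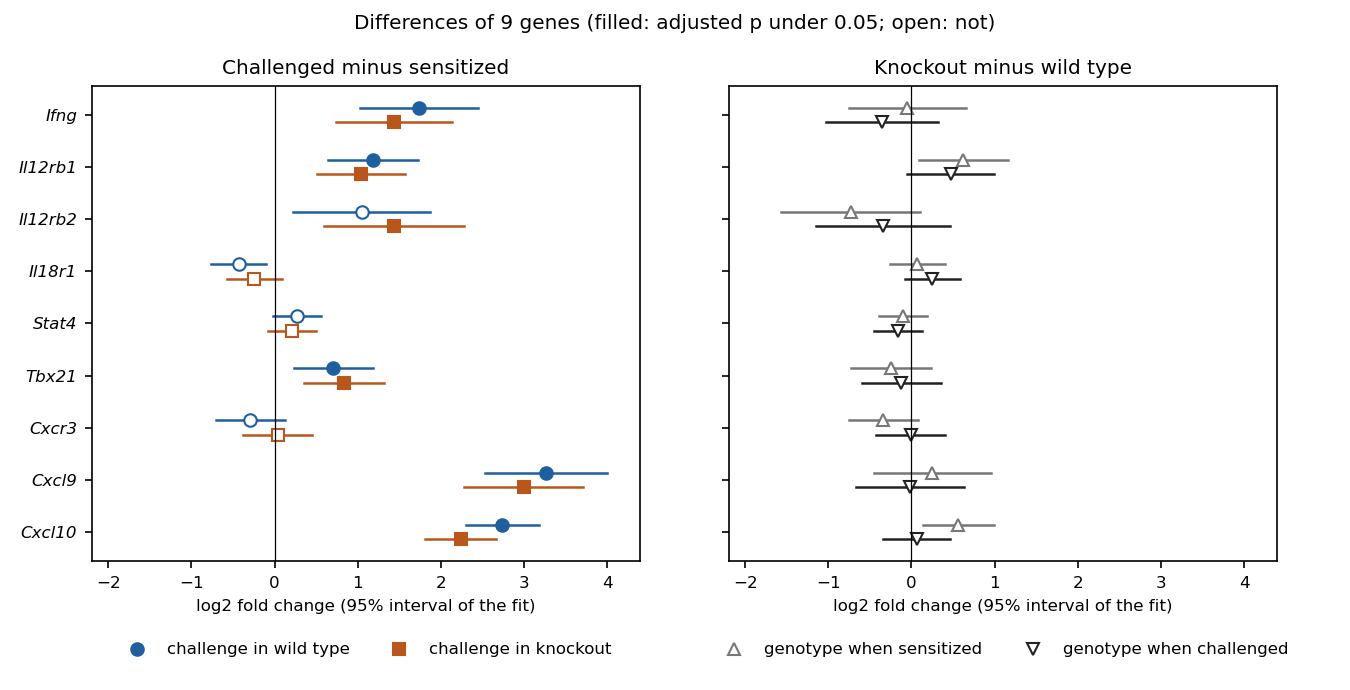
Log2 fold changes of 9 genes, Cxcl11 left out for its counts of 0, lie on the horizontal axes with their 95% intervals, for challenge in each genotype on the left and for knockout minus wild type on the right. Filled markers passed at an adjusted p of 0.05 and open ones did not: Cxcl9 and Cxcl10 stand farthest right under challenge, from 2.24 to 3.26, while all points on the right-hand panel are open and lie between -0.73 and 0.62.

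Between genotypes, no gene of the axis passed. In sensitized nodes 0 of 10 were called by edgeR, where 5.17% of all genes were called in either direction. An unadjusted edgeR p under 0.05 was held by 2 of 10 (Cxcl10 and Il12rb1), beside 4406 of the 20034 genes tested. The DESeq2 Wald test called 1, Cxcl10, at an adjusted p of 0.0467, beside 2301 of the 20034 genes. Cxcl10 was higher in all 3 KO_se libraries (8.12, 8.91 and 9.60 CPM) than in any WT_se library (6.02, 7.53 and 4.48), by 0.56 ± 0.20 in log2 with a 95% interval of 0.14 to 0.99 (edgeR adjusted p = 0.115). Il12rb1 gave 0.62 ± 0.25 with a 95% interval of 0.09 to 1.16 (edgeR adjusted p = 0.161), and its libraries overlapped, at 7.38 to 11.7 CPM in KO_se and 5.0 to 8.33 in WT_se.

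Ifng differed little between sensitized genotypes, at 1.83 ± 0.569 CPM in WT_se and 1.77 ± 0.365 in KO_se (n = 3 each), and the 95% interval of the log2 difference ran from -0.75 to 0.66 (edgeR adjusted p = 0.958). Tbx21 gave -0.25, with an interval of -0.73 to 0.23. Il12rb2 and Cxcr3 were lower in every KO_se library than in any WT_se library, by -0.73 ± 0.39 and -0.34 ± 0.19 in log2, and neither passed (edgeR adjusted p = 0.298 and 0.328). Over the 9 genes other than Cxcl11, the interval was narrowest for Stat4 (-0.39 to 0.19) and Il18r1 (-0.26 to 0.40) and widest for Il12rb2 (-1.57 to 0.11).

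In challenged nodes 0 of 10 genes passed by edgeR, where 0.599% of all genes were called. The DESeq2 Wald test called 0 of 10, beside 932 of the 20034 genes. An unadjusted edgeR p under 0.05 was held by 0 of 10, beside 2832 of the 20034 genes tested. The summed ligands measured 84.6 ± 17.1 CPM in WT_DTH and 86.1 ± 27.4 in KO_DTH (n = 3 each, two-sided exact permutation p = 1). Cxcl9 gave a log2 difference of -0.02 with a 95% interval of -0.67 to 0.63, and Cxcl10 one of 0.06 with an interval of -0.34 to 0.46. Ifng stood at 6.15 ± 2.13 CPM in WT_DTH and 4.81 ± 0.974 in KO_DTH, a difference of -0.35 ± 0.31 with an interval of -1.03 to 0.32 (edgeR adjusted p = 0.7). Il12rb1 gave 0.47 ± 0.24, with 13.9 ± 1.19 CPM in WT_DTH and 19.3 ± 5.36 in KO_DTH (edgeR adjusted p = 0.415). For all 10 genes the libraries of the challenged genotypes overlapped.

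The response to challenge was also set against itself between genotypes. As an interaction, 0 of 10 genes passed by edgeR, where 2.11% of all genes were called. The DESeq2 Wald test called 0 of 10, beside 1240 of the 20034 genes. An unadjusted edgeR p under 0.05 was held by 0 of 10, beside 3215 of the 20034 genes tested. The difference for Cxcl10 was -0.50 ± 0.27 in log2 (95% interval -1.09 to 0.08, edgeR adjusted p = 0.402), for Ifng -0.31 ± 0.45 (-1.29 to 0.67) and for Tbx21 0.13 ± 0.31 (-0.54 to 0.80). Il12rb2, called in the knockout and not in wild type, gave 0.39 ± 0.54 (95% interval -0.77 to 1.55, edgeR adjusted p = 0.807), so its response was not shown to differ.

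In the same libraries genes of the interleukin 17 arm did pass between genotypes. Il17a was higher in the knockout both when sensitized (log2 5.26 ± 0.36, edgeR adjusted p = 1.6e-05) and when challenged (3.27 ± 0.33, edgeR adjusted p = 0.000819). Of 14 tested Th2 and Th17 polarity genes, 5 were higher in the knockout when sensitized and 2 when challenged, and none of these was lower. Of 8 gamma-delta T cell markers 7 were higher in the knockout in each state (medians 1.96 and 2.26), and 12 of 12 cell cycle genes were higher when sensitized (median 1.71). Their part in the Il17a difference was not tested. With challenge, Il17a fell in the knockout (-1.51 ± 0.29, edgeR adjusted p = 0.00648), where Ifng rose.

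Upstream of Ifng, few genes of the interleukin 12 and 18 system moved with it. Of 11 tested cytokines and receptor chains outside the 10 genes, 2 rose and 1 fell in wild type, with a median log2 fold change of 0.33. Il18bp, a secreted decoy that binds interleukin 18, rose in wild type from 5.33 ± 0.579 to 14.9 ± 1.59 CPM (1.48 ± 0.18, edgeR adjusted p = 0.000214). It rose in the knockout from 5.56 ± 0.740 to 14.2 ± 3.27 CPM (1.36 ± 0.18, edgeR adjusted p = 0.000572). Il18 rose in wild type by 1.28 ± 0.31 (edgeR adjusted p = 0.0115) and gave 0.94 ± 0.30 in the knockout (edgeR adjusted p = 0.0689). Il27ra, a receptor chain for interleukin 27, fell in wild type by -0.52 ± 0.08 (edgeR adjusted p = 0.00115). Scaled to the CD3 genes it stood at 0.14, where the median of all genes stood at 0.65.

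Neither chain of interleukin 12 passed. Il12a, which pairs with Il12b to form it, gave 0.61 ± 0.22 in wild type and -0.12 ± 0.21 in the knockout (edgeR adjusted p = 0.0692 and 0.797). Il12b, which interleukin 23 also contains, gave -0.57 ± 0.43 and -0.17 ± 0.43 (edgeR adjusted p = 0.415 and 0.872). Il18rap, the second chain of the interleukin 18 receptor, gave 0.33 ± 0.18 and 0.24 ± 0.18, and Tyk2, a kinase of the interleukin 12 receptor, 0.09 ± 0.10 and 0.08 ± 0.10. In the knockout 1 gene rose, Il18bp, and 1 fell, the interleukin 23 receptor Il23r (-1.20 ± 0.35, edgeR adjusted p = 0.0461), which passed in 2 of 6 fits with 1 library left out.

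Downstream of interferon gamma, its receptor chains and signalling genes split. Of 12 genes, 7 rose and 1 fell in wild type, and 6 rose and none fell in the knockout. Irf8 rose by 1.19 ± 0.11 and 0.62 ± 0.11, Irf1 by 0.80 ± 0.11 and 0.56 ± 0.11, Irf9 by 0.99 ± 0.13 and 1.28 ± 0.13, and the feedback inhibitor Socs1 by 0.66 ± 0.13 and 0.60 ± 0.13, in wild type and knockout respectively. Jak2 (0.41 ± 0.10) and the class II transactivator Ciita (0.69 ± 0.16) rose in wild type, while Socs3 rose in the knockout (0.52 ± 0.07). Of the receptor chains, Ifngr2 fell in wild type by -0.30 ± 0.07 (edgeR adjusted p = 0.0119) and Ifngr1 gave -0.26 ± 0.12 (edgeR adjusted p = 0.173). Scaled to the CD3 genes Ifngr2 stood at 0.36, where the median of all genes stood at 0.65.

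Response genes known for interferon gamma rose broadly. Of 22, 20 rose in wild type and 15 in the knockout, and none fell in either, with median log2 fold changes of 1.06 and 0.93. The list includes MHC class II genes, and of 8 B cell markers 6 rose in wild type and 0 in the knockout. The part of B cells in these counts was not tested. Gbp2, a guanylate-binding protein of a family of close copies, rose by 2.19 ± 0.17 and 2.33 ± 0.17, and Irgm1, an immunity-related GTPase, by 1.46 ± 0.13 and 2.14 ± 0.13. Tap1, the peptide transporter for MHC class I, rose by 1.25 ± 0.11 and 1.27 ± 0.11. Nos2 and Ido1, both under 1 CPM in each group's mean and named after their values were seen, did not pass in either genotype. Many of these genes also answer to type I interferon, and of 12 tested genes of a list for type I and III interferon 9 rose in each genotype (medians 2.19 and 2.77), among them Stat2 at 2.04 ± 0.15 and 1.99 ± 0.15. The 9 were all genes induced by interferon. The 5 interferon genes listed (Ifna2, Ifna4, Ifnb1, Ifnl2 and Ifnl3) were at or near 0 counts and were not tested, and the receptor chains Ifnar1 (-0.02 ± 0.09 and 0.04 ± 0.09) and Ifnar2 (-0.07 ± 0.09 and 0.04 ± 0.09) did not pass. Which interferon moved with these genes was not tested.

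Other Th1 and cytotoxic lymphocyte genes moved in part. Of 22, 9 rose in wild type, and 5 rose and 1 fell in the knockout. Gzmb, the cytotoxic protease granzyme B, measured 14.7, 11.6 and 5.12 CPM in WT_se and 53.4, 44.7 and 46.3 in WT_DTH (2.21 ± 0.36, edgeR adjusted p = 0.0014), and rose by 2.74 ± 0.37 in the knockout (edgeR adjusted p = 0.000619). Runx3, a partner of T-bet, rose by 0.70 ± 0.10 and 0.66 ± 0.10. Zeb2 and Ccl4 also rose in both, and Prdm1, Hlx, Havcr2 and Tnf in wild type. Eomes, the relative of Tbx21, gave -0.09 ± 0.16 and 0.34 ± 0.16, and the cytotoxic gene Prf1 -0.09 ± 0.19 and 0.23 ± 0.19, none of which passed. Cxcr6 fell in the knockout by -1.04 ± 0.24 (edgeR adjusted p = 0.0152). With 1 library left out, Cxcr6 in the knockout, Tnf in wild type and Ccl4 in either genotype each passed in 2 of 6 fits.

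Chemokine genes next to the Cxcr3 axis did not rise. Of 13, none rose and 4 fell in wild type, where 8.97% of all genes were called lower, and none passed in the knockout. Those that fell were Ccr7, the receptor that holds naive T cells and dendritic cells in the node (-0.52 ± 0.12, edgeR adjusted p = 0.00954), its ligand Ccl21a (-1.75 ± 0.52, edgeR adjusted p = 0.0344), Cxcl12 (-1.39 ± 0.35, edgeR adjusted p = 0.0165) and the scavenger receptor Ackr3 (-1.81 ± 0.59, edgeR adjusted p = 0.0499). With 1 library left out, Ackr3 passed in 0 of 6 fits (edgeR adjusted p 0.0623 to 0.155), Ccl21a in 1, Cxcl12 in 4 and Ccr7 in 5. On the CD3 scale Ccr7 stood at 0.14, where the median of all genes stood at 0.65. Dpp4, the protease that clips Cxcr3 ligands, gave 0.06 ± 0.08 in both genotypes, and Pf4, a further Cxcr3 ligand, 0.27 ± 0.55 in wild type.

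**Figure D3:**
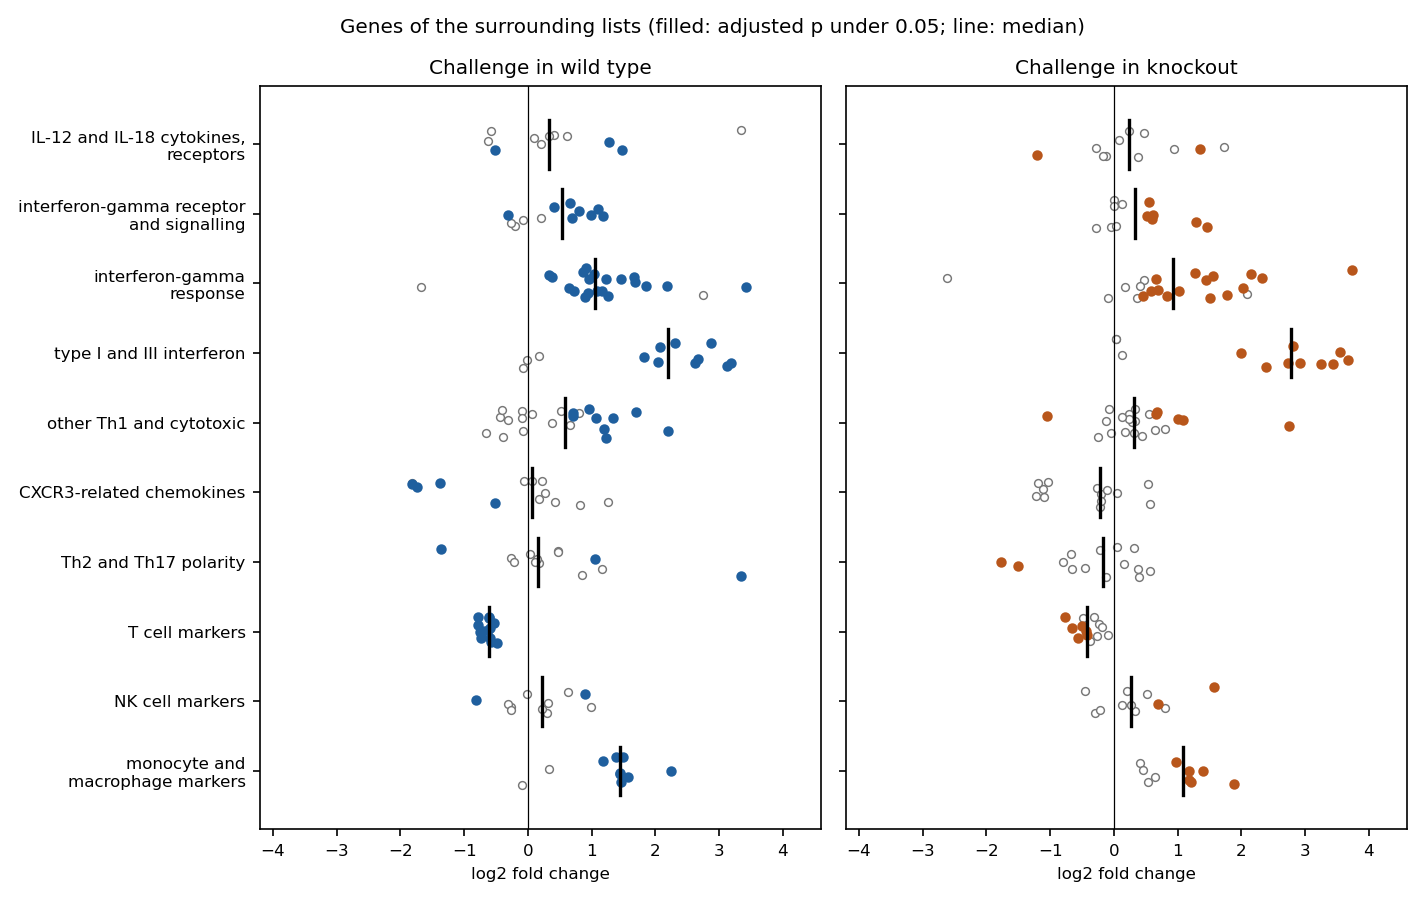
Each circle is 1 gene of a list named on the vertical axis, at its log2 fold change with challenge in wild type (left) and knockout (right). Filled circles passed at an adjusted p of 0.05 and the black line is the list's median, which is 1.06 and 0.93 for the interferon gamma response, 1.44 and 1.08 for monocyte and macrophage markers and -0.61 and -0.43 for T cell markers.

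Markers of several cell types moved in the same comparisons. All 13 T cell markers fell in wild type and 6 of 13 in the knockout, where 3.86% of all genes were called lower, and their summed CPM ranged from 2607 to 3177 in WT_se, 1544 to 2122 in WT_DTH, 2398 to 2967 in KO_se and 1876 to 2097 in KO_DTH. Of 10 monocyte and macrophage markers 8 rose in wild type and 6 in the knockout, with summed CPM of 483 to 610, 1157 to 1962, 641 to 863 and 1239.98 to 1554 in the same order of groups. Of 11 NK cell markers, Tyrobp rose in both genotypes, Gzma rose in the knockout and Il7r fell in wild type. Of 10 dendritic cell markers 2 rose and 1 fell in each genotype, and of 8 B cell markers 6 rose in wild type and 1 fell in the knockout. No marker of these lists was at 0 in all libraries. Their part in the changes of the 10 genes was not tested.

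Since Ifng, Tbx21, Cxcr3 and the receptor chains are carried largely by lymphocytes and the T cell markers fell, the 10 genes were also expressed against the summed counts of the CD3 complex (Cd3d, Cd3e, Cd3g and Cd247). Per 1000 such counts, Ifng stood at 2.92 ± 0.926 in WT_se and 15.9 ± 6.96 in WT_DTH, and at 2.93 ± 0.774 in KO_se and 10.9 ± 2.78 in KO_DTH (n = 3 each). Tbx21 stood at 8.70 ± 2.46, 22.3 ± 4.87, 7.53 ± 1.74 and 18.1 ± 4.91 in the same order, and Cxcr3 at 21.4 ± 1.01, 27.1 ± 5.45, 17.8 ± 3.85 and 24.6 ± 3.15. On this scale the median of all genes shifted by 0.65 in log2 in wild type and 0.44 in the knockout, and the share of calls that were higher went from 52.1% to 93.0% and from 60.1% to 98.2%. Stat4 then passed in both genotypes and Il12rb2 in wild type as well, making 8 of 10 in each, all higher. Over all 20034 genes tested, 9105 were called higher on this scale in wild type and 4387 in the knockout. Relative to the shift, Stat4 stood at 0.28 in wild type and 0.21 in the knockout, and Cxcr3 at -0.31 and 0.03. Cxcr3 and Il18r1 changed sign in wild type on this scale (0.34 and 0.25), and Il18r1 in the knockout (0.18), without passing.

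**Figure D4:**
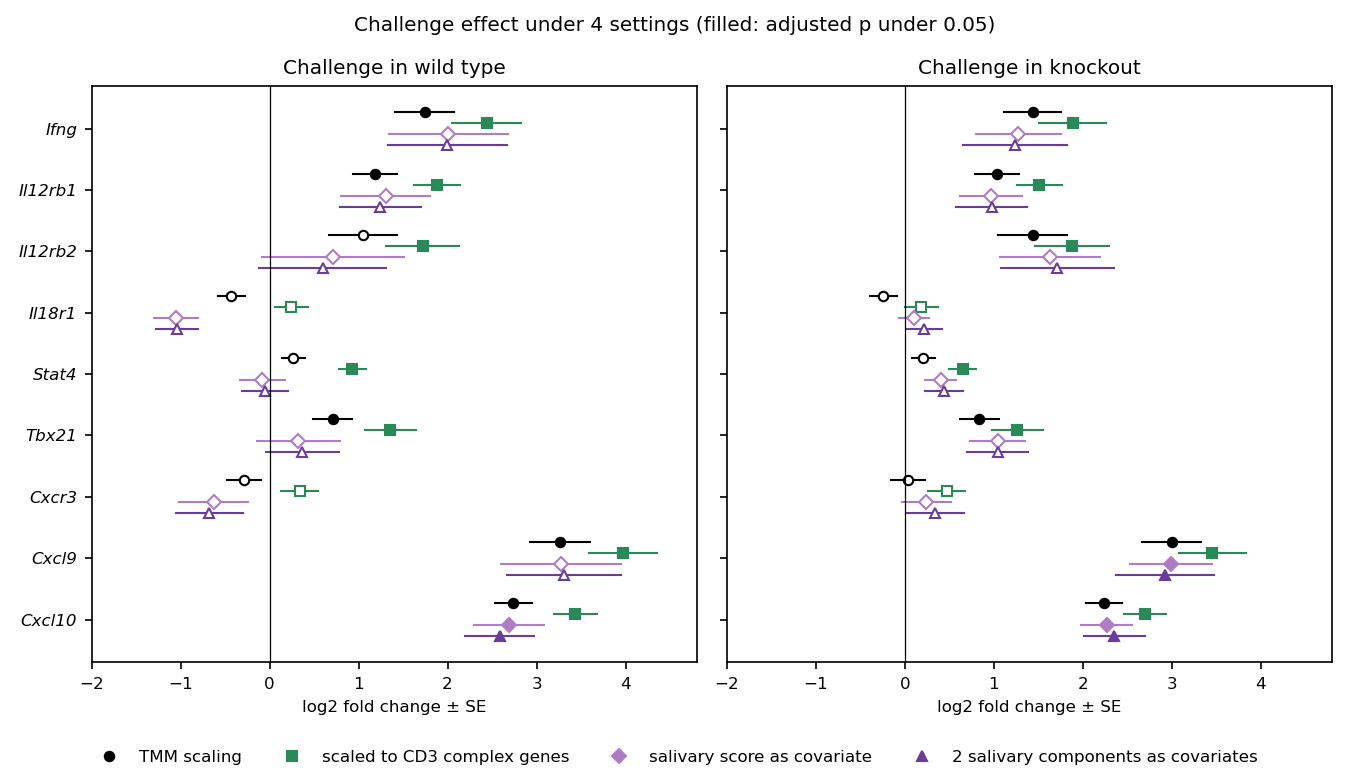
Log2 fold changes with challenge (horizontal axes, ± SE) of 9 genes are shown under 4 settings, in wild type on the left and in the knockout on the right, and filled markers passed at an adjusted p of 0.05. With the salivary signal in the model the Cxcl9 and Cxcl10 estimates stay near those without it, while their SEs widen: in wild type Cxcl9 goes from 3.26 ± 0.34 to 3.28 ± 0.67 and is open.

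With the salivary signal as a covariate fewer genes passed. In wild type 1 of 10 did, Cxcl10 (2.69 ± 0.39, edgeR adjusted p = 0.0273), and over all genes 28 were called in place of 3755. The estimate for Cxcl9 was 3.28 ± 0.67 (edgeR adjusted p = 0.0798), for Ifng 2.01 ± 0.67 (edgeR adjusted p = 0.281) and for Tbx21 0.32 ± 0.47 (edgeR adjusted p = 0.874). In the knockout 2 of 10 passed, Cxcl9 (2.99 ± 0.46, edgeR adjusted p = 0.00546) and Cxcl10 (2.27 ± 0.28, edgeR adjusted p = 0.00233), and 656 genes in place of 1938 over all. When each group's most salivary library was removed, 6 of 10 passed in wild type, where Tbx21 (0.86 ± 0.24, edgeR adjusted p = 0.0525) gave way to a lower Il18r1 (-0.62 ± 0.11, edgeR adjusted p = 0.00726). The 3 ligands passed in the knockout.

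Over the 12 libraries, the genes whose log2 CPM followed those of the axis most closely were listed as a description, out of 14790 compared. For Cxcl9 they were Tgm2 (Pearson r = 0.989), Hk3, Tap1, Ifi205 and Il1rn (down to 0.984), all of them across libraries that share the same 2 states. For Ifng they were Ppp4c (0.952), Ccdc86, Ppt2, Rcc2 and Lemd2 (0.946), and for Tbx21 AC119228.1 (0.961), Wipf2, Sik3, Rnf40 and Rfx1 (0.945). For Cxcr3 the closest were less close: Padi1 (0.872), Lysmd4, Gypc, Deaf1 and Nxn (0.827). Such values share depth, salivary share and the grouping of the libraries, and no test was made of them.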

How the data were processed

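Estimated counts per gene were taken from the table the authors deposited, in which all values were whole, so no rounding was needed. Per the labels' protocols, total RNA (1 µg) was made into libraries with a directional kit. Per the submitters' processing notes, fastp 0.23.2, HISAT2 2.2.1 and StringTie 2.2.1 were used with GRCm39. The annotation release and strand setting are not given in the sources used here. If counting ignored strand, reads of antisense partners would be mixed in.

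GENCODE M21 (GRCm38, older than the build of the counts) gave symbols for 51948 of 56941 IDs, and exon lengths, but no coordinates. Promoter sequences came from RefSeq on GRCm38.p6. Samples were grouped by their description labels. Depth was 36946696 to 58405576 counts per library, and intervals of single counts cover counting error only. The test was the quasi-likelihood test of edgeR 4.0.16 (TMM, filterByExpr with a minimum count of 10, 8 residual degrees of freedom, two-sided). One model held all 12 libraries, with 5 contrasts and Benjamini-Hochberg adjustment over 20034 genes. Intervals are 95% from the fit. Scripts ran in Python 3.11.15 (scipy 1.17.1, pandas 2.3.3, matplotlib 3.10.9) and in R 4.3.3 with DESeq2 1.42.0 and limma 3.58.1, and the fit was tested on simulated data.

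The 10 genes, the 17 lists beside them and the tests were chosen with earlier results of these data known. The list genes named are any members of the interleukin 12 and 18, interferon gamma signalling, Th1 and Cxcr3-related lists and, for other lists, up to 4 of smallest p. Nos2 and Ido1 were named after their values were seen, and some list genes are not reported here. Genes most alike were the 5 of highest Pearson r with Ifng, Tbx21, Cxcr3 and Cxcl9, leaving out predicted genes and receptor segments. Alternatives were the DESeq2 Wald test, DESeq2 size factors, no filter or a mean of 50 counts or more, a fit of the 2 groups alone, a replicate block, each library left out in turn, scaling to CD3 complex genes, and 3 salivary settings: a score or 2 components in the model, or each group's most salivary library removed.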

Additional observations from a re-analysis of the deposited data

Results flagged for a closer look

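The change with challenge differed between genotypes, by the interaction term of the edgeR fit, for H2-Aa, Il17a and Cd3e among the pathway lists and T cell markers and for none of the 10 axis genes. H2-Aa, an MHC class II chain and interferon gamma response gene, rose in wild type by 0.73 ± 0.13 and gave -0.09 ± 0.13 in the knockout, a difference of -0.82 ± 0.19 (edgeR adjusted p = 0.0438). Its level in KO_se (2624 ± 403 CPM, n = 3) was near that of WT_DTH (2607 ± 275, n = 3), against 1577 ± 193 in WT_se. The B cell markers Cd79b (-1.02 ± 0.17, edgeR adjusted p = 0.0237) and Ms4a1 (-1.02 ± 0.19, edgeR adjusted p = 0.0282) also passed the interaction, with a median of -0.73 over 8 B cell markers, and their part in the H2-Aa difference was not tested. Il17a gave 0.48 ± 0.36 in wild type and fell by 1.51 ± 0.29 in the knockout, a difference of -1.99 ± 0.46 (edgeR adjusted p = 0.0476). The T cell marker Cd3e fell by 0.74 ± 0.10 in wild type and gave -0.10 ± 0.10 in the knockout, a difference of 0.64 ± 0.14 (edgeR adjusted p = 0.0429). With 1 library left out, H2-Aa passed in 4 of 12 fits (-0.94 to -0.75), Cd3e in 2 (0.50 to 0.72) and Il17a in 0 (-2.22 to -1.70, edgeR adjusted p 0.0525 to 0.117). Over all genes these fits gave from 0 calls (without WT_DTH replicate 3, KO_se replicate 1 or KO_se replicate 2) to 830 (without KO_DTH replicate 3), against 422 with all libraries. With the salivary score as a covariate no gene passed the interaction test, and 904 had an unadjusted p under 0.05.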

How the results depend on the processing

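For the 10 axis genes, 724 single-gene values under the alternatives kept their direction and side of the threshold, 49 lost a call, 10 gained one and 59 changed sign. With 4 list genes that makes 63 changes of sign, none of which passed under the setting concerned (lowest adjusted p = 0.06). The genes passing numbered 5 to 7 in wild type and 3 to 6 in the knockout with 1 library left out (3 without KO_se replicate 2 and 3 without KO_DTH replicate 1), and 0 in the other 3 comparisons. With the salivary score and with 2 salivary components they numbered 1 and 1 in wild type and 2 and 2 in the knockout, where leaving out the libraries of largest salivary share left 3. The DESeq2 Wald test gave 1 between sensitized genotypes. Over all genes, calls in wild type went from 3755 to 43 with the components, 2464 without the most salivary libraries and 9786 with CD3 scaling, and in the knockout from 1938 to 426, 673 and 4466. The DESeq2 Wald test called 2984 in the knockout, and 2301, 932 and 1240 in place of 1035, 120 and 422 between sensitized genotypes, between challenged genotypes and for the interaction. The cause of these differences was not tested. Cxcl11 has no adjusted p under the DESeq2 Wald test for challenge in the knockout or between sensitized genotypes, and is not in the fits that ask for a mean of 50 counts.

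For libraries of a shared replicate number, the correlation of their deviations from the group means ran from -0.10 to 0.14 and passed 0.1 in 1 of 18 pairs. Deviations of 3 libraries sum to 0 within a group, so these values cannot exclude a pairing, and the labels do not say what a number marks. With a replicate block 6 genes passed in wild type, 6 in the knockout (Il12rb2 at adjusted p = 0.053 did not) and 0 elsewhere. Over all genes the block took the calls between challenged genotypes from 120 to 38 and the interaction from 422 to 128, and H2-Aa, Il17a and Cd3e no longer passed the interaction (adjusted p = 0.0779, 0.0721 and 0.0605).

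With challenge, CD3 scaling gave Cxcr3 0.34, Il18r1 0.25, Ifngr2 0.36, Ccr7 0.14 and Il27ra 0.14 in wild type and Il18r1 0.18 in the knockout. The median of all genes on that scale stood at 0.65 in wild type and 0.44 in the knockout. The salivary score and the 2 components gave Stat4 -0.082 and -0.0499 in wild type and Il18r1 0.10 and 0.21 in the knockout, and the components Tnf -0.11. Without the libraries of largest salivary share Cxcr3 was -0.02 in the knockout, and with 1 library left out -0.053 to 0.10. Between sensitized genotypes the score, the components and those libraries left out gave Ifng 0.12, 0.10 and 0.05 and Il18r1 -0.32, -0.35 and -0.045, and CD3 scaling Ifng 0.0055. With 1 library left out these ran from -0.28 to 0.11 (Ifng), -0.09 to 0.18 (Il18r1) and -0.23 to 0.012 (Stat4).

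Between challenged genotypes the same 3 settings gave Tbx21 0.22, 0.13 and 0.064, Cxcr3 0.31, 0.41 and 0.051, and Stat4 0.17, 0.18 and 0.0093. The score and components gave Cxcl11 -0.61 and -4.80, and CD3 scaling Cxcl10 -0.12. With 1 library left out the ranges were -0.38 to 0.064 (Tbx21), -0.24 to 0.15 (Cxcr3), -0.41 to 0.17 (Cxcl9), -0.13 to 0.20 (Cxcl10) and -0.29 to 0.88 (Cxcl11). For the interaction, CD3 scaling gave Tbx21 -0.093 and Il18r1 -0.062, the 3 salivary settings gave Stat4 0.48, 0.49 and 0.26, and with each group's most salivary library removed Cxcl11 was 0.60 and Il12rb1 0.095. With 1 library left out the interaction ran from -0.13 to 0.31 (Tbx21), -3.75 to 0.53 (Cxcl11), -0.18 to 0.072 (Stat4), -0.44 to 0.032 (Il12rb1) and -0.16 to 0.61 (Il12rb2).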
